A study of Mus musculus with 6 samples.

Results

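The complement genes examined here were C1qa, C1qb, C1qc, C1ra, C2, C3, C4b, Cfb and Serping1, 9 of the 52550 mouse genes in the deposited table. They were chosen by name, as components and regulators of the complement system, and each symbol matched a single mouse gene. Complement is a set of blood and tissue proteins that tag particles for uptake and can open pores in membranes. In the classical pathway C1q binds a target, the proteases C1r and C1s bound to it cut C4 and C2, and the complex that results cuts C3, the step where the classical, lectin and alternative pathways meet. In the alternative pathway factor B takes the place of C2. Liver makes most complement protein in blood, macrophages are a main source of C1q, and fibroblasts of connective tissue make C3, C1r, C1s and the C1 inhibitor.

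Muscle of 3 hemizygous FLExDUX4 mice and 3 wild-type (WT) littermates, all male, gave the RNA. It was sequenced with QuantSeq, which primes from the poly(A) tail and so reads only the end of each mRNA. FLExDUX4 mice carry an inverted human DUX4 transgene at the Rosa26 locus, which is leaky and gives very little DUX4 without Cre recombinase. DUX4 is the transcription factor whose expression in muscle causes facioscapulohumeral muscular dystrophy. No Cre line and no inducing agent was part of these groups, and the WT mice lack the transgene. The sample labels give quadriceps and an age of 13 weeks, whereas the methods of the study give triceps and a younger age for the RNA sequencing. The transgene is human and was not analysed here, so the genotype of each group was not checked against its own transcript.

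The deposited counts used here are totals of each group of 3 mice, and they came to 13110125 counts on mouse genes in FLExDUX4 and 18367364 in WT mice. Values of single mice were not used, because their columns carry names that match no sample label. Each group is therefore 1 total, no test was run, and no ratio below has a replicate check, so that 1 mouse could decide it. The TMM method of edgeR set the scale of the totals from the 13396 genes that passed a filter on low counts, called tested below. A ratio is that of FLExDUX4 to WT on the log2 scale with a pseudocount of 0.5, and its 95% Clopper-Pearson interval covers counting error only, not the spread between mice. Levels are in CPM, counts scaled to a common library total, and were not divided by gene length, because a 3′ assay gives about 1 read for each transcript. The skeletal muscle gene Acta1 had 35944 CPM in FLExDUX4 and 34707 in WT mice, while summed counts of 7 hepatocyte markers were 7 and 4. Of the limb position genes, Tbx5 of the forelimb had 14 and 34 counts, Tbx4 of the hindlimb had 10 in each group, Pitx1 0 and 1, and Hoxc10 was at 0 in both.

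For 4 of the 9 genes another mouse gene holds stretches as long as a read, so that reads from those stretches could not be assigned by sequence. The coding sequences of C4b and its neighbour C4a were identical at 96.2% of 5203 aligned bases in the GENCODE annotation of GRCm38. Those of C1ra and C1rb were identical at 98.2% of 2117 aligned bases. The pairs of 75 bases below, 1 read in length, show how far a read from such a stretch can tell each gene from its copy. Only stretches within 1 exon and without gaps were searched, so those across exon junctions are not covered. Capitals mark bases that differ within a pair, and all are written 5′ to 3′ on the strand of the gene. The last 75 coding bases of C4b (chr17:34728489-34728563, minus strand) and C4a (chr17:34809200-34809274, minus strand) did not differ. Of the stretches searched in the last 500 coding bases, that with the most differences held 2 (C4b at chr17:34728820-34728894 and C4a at chr17:34809531-34809605).
C4b, last coding bases: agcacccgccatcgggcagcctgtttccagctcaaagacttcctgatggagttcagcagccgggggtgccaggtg
C4a, last coding bases: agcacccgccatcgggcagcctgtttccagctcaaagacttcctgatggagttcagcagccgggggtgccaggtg
C4b, most different: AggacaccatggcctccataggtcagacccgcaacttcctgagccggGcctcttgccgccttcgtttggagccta
C4a, most different: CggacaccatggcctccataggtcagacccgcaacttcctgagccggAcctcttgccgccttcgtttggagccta

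The last 75 coding bases of C1ra (chr6:124522903-124522977, plus strand) and C1rb (chr6:124580949-124581023, plus strand) did not differ either. The most different of the stretches searched in the last 500 coding bases held 11 differences (C1ra at chr6:124522663-124522737 and C1rb at chr6:124580709-124580783).
C1ra, last coding bases: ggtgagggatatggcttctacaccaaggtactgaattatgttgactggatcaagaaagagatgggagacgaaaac
C1rb, last coding bases: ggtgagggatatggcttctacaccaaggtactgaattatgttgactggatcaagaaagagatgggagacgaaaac
C1ra, most different: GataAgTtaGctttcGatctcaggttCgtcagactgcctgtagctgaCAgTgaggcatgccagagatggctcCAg
C1rb, most different: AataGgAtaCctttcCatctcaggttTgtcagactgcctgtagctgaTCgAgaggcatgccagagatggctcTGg

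Over the last 500 bases of the annotated transcripts, where a 3′ assay reads, the share of 75-base stretches also found in another gene was 26.5% for C4b, with C4a, and 14.3% for C1ra, with C1rb. It was 27.5% for C2 and 56.6% for Cfb, both with Gm20547, a gene model on the same strand that spans parts of both. For C1qa, C1qb, C1qc, C3 and Serping1 no such stretch was found. In the deposited table C4a had 2 counts in FLExDUX4 and 0 in WT mice, and C1rb and Gm20547 had 0 in both. How reads in shared or overlapping stretches were counted is not given in the sources used here.

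Of the 9 complement genes, 8 were tested, and 7 of these differed by less than 1.5-fold between the groups. The ratio was above 0 for 5 of the 8, beside 49.9% of all tested genes, and below 0 for 3, with a median of 0.10 beside -0.001 for all tested genes. C1qb alone lay past 1.5-fold, and it was lower in FLExDUX4 mice. Among all tested genes 26.8% lay past 1.5-fold in either direction, 13.2% higher and 13.5% lower, so that 1 of 8 is no larger a share than that of genes at large. The counting interval excluded 0 for 3 of the 8, above 0 for C1ra and Serping1 and below 0 for C1qb, beside 41.1% of all tested genes, 20.5% above and 20.6% below. Of the 6576 tested genes with 100 to 1000 counts over both groups, a range that holds 6 of the 8, 16.7% lay past 1.5-fold and 39.6% had an interval that excluded 0.

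**Figure D1:**
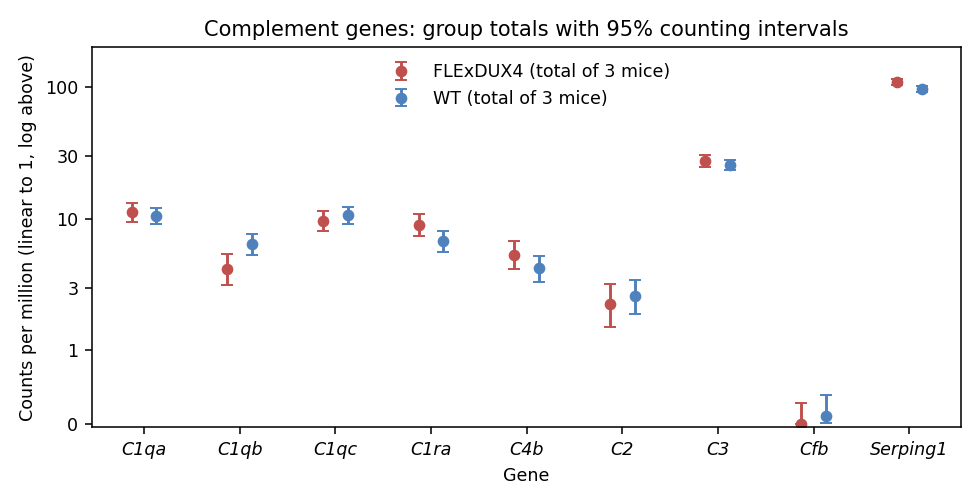
Level of the 9 complement genes in the FLExDUX4 (red) and WT (blue) group totals, in CPM on an axis that is linear up to 1 and logarithmic above. Points are the totals of 3 mice and bars the exact 95% Poisson intervals, which cover counting error only. Serping1 stands at about 100 CPM, Cfb near 0, and the bars of both groups overlap for every gene but Serping1.

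In both groups Serping1 was the most abundant of the 9 and C3 the next. In FLExDUX4 mice C1qa, C1qc and C1ra followed with overlapping intervals, and C4b, C1qb and C2 came after them, each overlapping its neighbour. In WT mice C1qc and C1qa followed C3, then C1ra and C1qb with overlapping intervals, then C4b and C2, whose intervals also overlapped. Cfb was last in both groups. Serping1 had a higher level than 94.2% of tested genes in FLExDUX4 and 93.3% in WT mice, and C2 than 24.6% and 27.2%.

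The 3 C1q genes encode the A, B and C chains of C1q, the recognition unit of the classical pathway, which assembles from all 3 chains. They lie next to each other on the minus strand of chromosome 4 (GRCm38), with 3 exons each: C1qb (ENSMUSG00000036905) at chr4:136880129-136886187, C1qc (ENSMUSG00000036896) at chr4:136889804-136893065 and C1qa (ENSMUSG00000036887) at chr4:136895917-136898803. The starts of C1qb and C1qc are 9675 bp apart and those of C1qc and C1qa 6113 bp.

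C1qa had 145 counts in FLExDUX4 and 196 in WT mice, or 11.2 CPM (interval 9.43 to 13.1) and 10.6 CPM (9.13 to 12.1). The ratio was 0.08 (interval -0.24 to 0.40), so the difference was within counting error. C1qc had 125 and 197 counts, or 9.63 CPM (8.02 to 11.5) and 10.6 CPM (9.18 to 12.2), with a ratio of -0.14 (interval -0.48 to 0.19). C1qb had 54 and 119 counts, or 4.16 CPM (3.13 to 5.43) and 6.41 CPM (5.31 to 7.67). Its ratio of -0.62 (interval -1.12 to -0.15) lay just past the 1.5-fold line, which is 0.585 on this scale. With a pseudocount of 3 it was -0.58, inside that line.

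The ratios of the 3 genes, whose products form 1 protein, ran from -0.62 to 0.08, and the intervals of C1qa and C1qb overlap between -0.24 and -0.15. C1qb gave 16.7% of C1q counts in FLExDUX4 mice (exact binomial interval 12.8 to 21.2) and 23.2% in WT mice (19.6 to 27.1), and these intervals overlap. C1qa gave 44.8% (39.3 to 50.3) and 38.3% (34.1 to 42.6), and C1qc 38.6% and 38.5%. Summed, the C1q genes had 324 and 512 counts, or 24.97 and 27.6 CPM, with a ratio of -0.14 (interval -0.35 to 0.06). Without C1qb the summed ratio was -0.02 (interval -0.25 to 0.20).

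The tissue holds many cell types, and in bulk RNA fewer cells of a type and less RNA per cell cannot be told apart. Of 12 macrophage markers, all tested, 5 had a ratio above 0 and 7 below, with ratios from -1.15 for Aif1 to 0.92 for Cd163 and a median of -0.06. Their summed level was 107 CPM in FLExDUX4 and 103 CPM in WT mice. The macrophage gene Tyrobp had 21 and 57 counts, Cd68 had 23 and 52, and Adgre1, which encodes F4/80, had 24 and 55, all with lower ratios, from -0.90 to -0.64. Csf1r, the receptor that macrophages need to survive, had 201 and 285 counts and a ratio of 0.01 (interval -0.26 to 0.28). Cd163 had 165 and 125 and Lyve1 133 and 115 counts, with ratios of 0.92 and 0.73. Thus the macrophage list held ratios on both sides of 0, and its part in the C1qb value was not tested.

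C1ra (ENSMUSG00000055172, chr6:124512405-124523443, plus strand) encodes C1r, the protease that activates C1s in the C1 complex. It had 117 counts in FLExDUX4 and 125 in WT mice, or 9.02 CPM (interval 7.46 to 10.8) and 6.74 CPM (5.61 to 8.02). The ratio was 0.42 (interval 0.04 to 0.80), the highest of the 8, and stayed at 0.42 when the counts of C1rb were added. C1s1, the next gene on the chromosome, encodes C1s and had 277 and 386 counts with a ratio of 0.04 (interval -0.19 to 0.26). Of the counts of both genes C1ra gave 29.7% (25.2 to 34.5) in FLExDUX4 and 24.5% (20.8 to 28.4) in WT mice, again with overlapping intervals. Summed, C1ra and C1s1 had 30.4 and 27.5 CPM and a ratio of 0.14 (interval -0.05 to 0.33).

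C4b and C2 encode the proteins that C1s cuts, whose fragments together form the C3 convertase of the classical and lectin pathways. C4b (ENSMUSG00000073418, chr17:34728380-34743882, minus strand) had 69 counts in FLExDUX4 and 78 in WT mice, or 5.32 CPM (interval 4.14 to 6.73) and 4.20 CPM (3.32 to 5.25). Its ratio was 0.34 (interval -0.15 to 0.83), and 0.38 with the counts of C4a, with which it shares the stretches shown above. C2 (ENSMUSG00000024371, chr17:34862604-34898265, minus strand) had 29 and 48 counts, or 2.24 CPM (1.497 to 3.21) and 2.59 CPM (1.91 to 3.43). Its ratio of -0.20 (interval -0.93 to 0.48) has the widest interval of the 8, which holds both 0 and a value 1.5-fold lower, so that a difference was not detectable at this depth. With the counts of Cfb and Gm20547 added, which gave 29 and 50, the ratio was -0.26.

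Cfb (ENSMUSG00000090231, chr17:34856374-34862518, minus strand), which encodes factor B, had 0 counts in FLExDUX4 and 2 in WT mice. The exact Poisson interval was 0 to 0.284 CPM in FLExDUX4 mice and 0.0131 to 0.389 CPM, around 0.108, in WT mice. Both groups were at or under 3 counts, which are 0.231 CPM in FLExDUX4 and 0.162 CPM in WT mice, so no ratio is given. Of the last 500 bases of its longest coding transcript, 462 lie in exons of Gm20547, against 32 for C2, so that low counts in this table do not show that the transcript was absent. The miRNA gene Mir6972 also lies within Cfb and had 0 counts.

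C3 (ENSMUSG00000024164, chr17:57203970-57228136, minus strand) encodes the central protein of all 3 pathways. It had 359 counts in FLExDUX4 and 474 in WT mice, or 27.7 CPM (interval 24.9 to 30.7) and 25.5 CPM (23.3 to 27.9). The ratio was 0.12 (interval -0.09 to 0.32), and the interval leaves out a difference of 1.5-fold in these totals. C3 gave 15.5% of the counts of the 9 genes in FLExDUX4 and 15.6% in WT mice.

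Serping1 (ENSMUSG00000023224, chr2:84765387-84775444, minus strand) encodes the C1 inhibitor, which blocks C1r and C1s and also proteases of the contact system. It had 1420 counts in FLExDUX4 and 1791 in WT mice, or 109 CPM (interval 104 to 115) and 96.5 CPM (92.1 to 101). The ratio was 0.18 (interval 0.08 to 0.28), 1.13-fold higher in FLExDUX4 mice. Serping1 gave 61.3% of the counts of the 9 genes in FLExDUX4 and 59.1% in WT mice, so that the sum of the 9 mostly follows it. The summed ratio of the 9 genes was 0.13 (interval 0.05 to 0.21), and without Serping1 it was 0.05 (interval -0.07 to 0.18). Fibroblasts are known to make Serping1 and C3, and of 10 fibroblast markers 8 had a ratio above 0, the median being 0.05, with summed levels of 2003 and 1854 CPM. Their part in the Serping1 value was not tested.

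**Figure D2:**
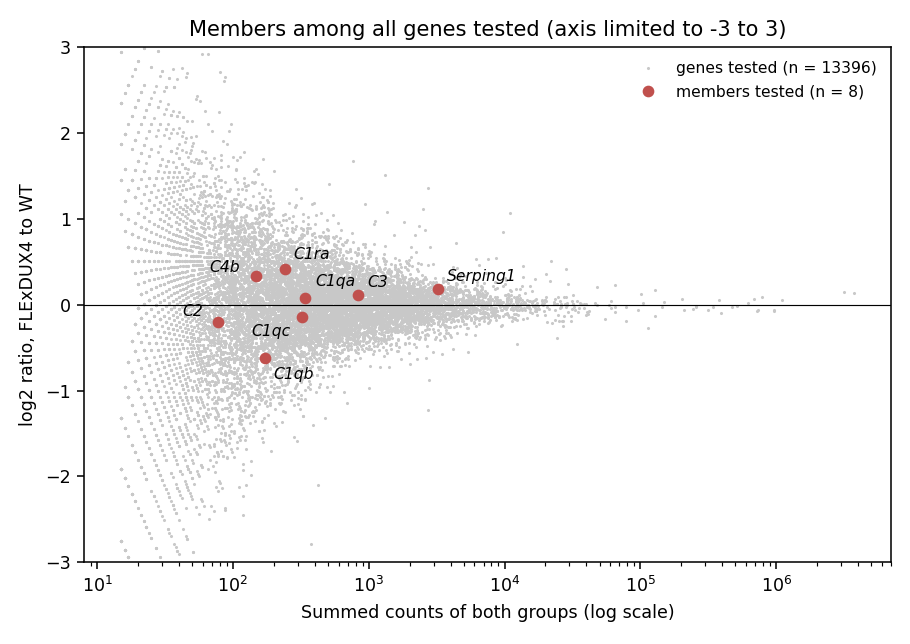
Log2 ratio of FLExDUX4 to WT against the summed counts of both groups (log axis), with grey points for the 13396 tested genes and red points for the 8 tested complement genes. The red points lie inside the grey cloud, C1qb in its lower part at -0.62 and C1ra in its upper part at 0.42, and the cloud narrows as counts rise.

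Among the 6576 genes with 100 to 1000 counts, the 5th to 95th percentile of the ratios ran from -0.73 to 0.73, and all 8 tested complement genes lay within that range, C1qb at -0.62 included. The range for genes with more counts is narrower in the plot of ratio against counts, where Serping1 lies above the midline by 0.18.

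The direction of several genes depended on how the totals were scaled. Scaling to the ERCC and SIRV spike-ins moved the median ratio of all tested genes by -0.28. Under it 2 of the 8 complement genes, C1ra and C4b, kept a ratio above 0 and 6 were below, against 5 and 3 with TMM. Serping1 then had a ratio of -0.094, C3 of -0.16 and C1qa of -0.19. The counting interval then excluded 0 for 2 of the 8, C1qb and C1qc, both below 0, and no longer for C1ra (ratio 0.15) or Serping1. The shares of all tested genes above 0, or with an interval that excluded 0, were computed with TMM only. Since a scaling shifts all genes alike, the order of the 8 ratios did not change. The same shift applies to the genes of the other lists, whose counts above and below 0 are given with TMM only. Under the other 4 scalings tried, the split stayed at 5 and 3.

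**Figure D3:**
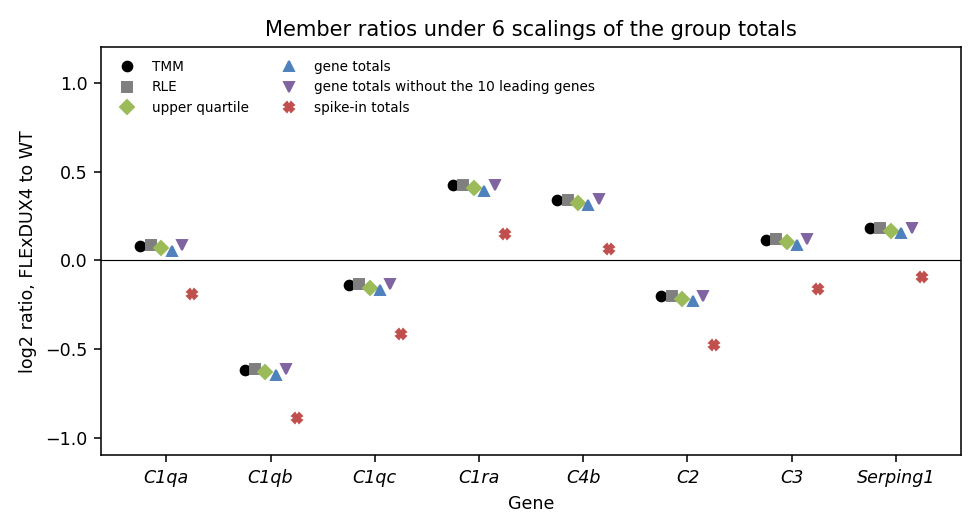
Log2 ratio of FLExDUX4 to WT for the 8 tested complement genes under 6 scalings of the group totals, each with its own marker. The 5 scalings based on mouse genes lie close together, and the spike-in totals (red crosses) place each gene lower by about 0.28, which takes C1qa, C3 and Serping1 below 0.

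The rest of the complement system was followed with 47 further genes, listed by role, with earlier results of these data known. Of these, 26 were over 3 counts in a group, 23 were tested, and 19 were at 0 in both groups. The ratio was above 0 for 8 and below 0 for 15, with a median of -0.10, and 3 lay past 1.5-fold higher and 6 past 1.5-fold lower, or 9 of 23 beside 26.8% of all tested genes. These 23 include many genes with few counts.

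In the alternative pathway the ratios went in opposite directions. Cfd, which encodes factor D (adipsin), the protease that cuts factor B and a product of fat cells, had 1468 counts in FLExDUX4 and 1144 in WT mice, or 113 and 61.6 CPM, a ratio of 0.88 (interval 0.76 to 0.99). Cfp, which encodes properdin, the stabilizer of the alternative convertase, had 31 and 83 counts and a ratio of -0.89 (interval -1.55 to -0.29). Of 8 adipocyte markers 7 had a ratio above 0, the median being 0.30, among them Adipoq with 294 and 258 counts (ratio 0.70, interval 0.46 to 0.95). Fabp4, the fat cell marker with 2929 and 3869 counts, had a ratio of 0.11 (interval 0.05 to 0.18). Lep alone was below 0, with 12 and 31 counts and a ratio of -0.82 (interval -1.95 to 0.15). The part of these markers in the Cfd value was not tested.

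Among soluble regulators Clu, the gene for clusterin, had 622 and 1044 counts and a ratio of -0.23 (interval -0.38 to -0.09), and Vtn, the gene for vitronectin, had 160 and 236 and a ratio of -0.04 (interval -0.34 to 0.25). All 5 tested membrane regulators, which protect cells from complement, had a ratio below 0, with a median of -0.12, and 2 of them lay past 1.5-fold. The abundant ones differed little, with a ratio of -0.07 for Cd59a (377 and 567 counts), -0.12 for Cr1l (337 and 524) and -0.09 for Cd55 (158 and 240). Those past 1.5-fold had few counts, Cd46 with 17 and 45 (ratio -0.86, interval -1.79 to -0.05) and Cd59b with 21 and 53 (ratio -0.80, interval -1.62 to -0.07).

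Receptors for complement fragments had low counts. C3ar1, the C3a receptor, had 41 and 63 counts and a ratio of -0.10 (interval -0.71 to 0.49). C5ar1, the C5a receptor, had 6 and 27 and a ratio of -1.56 (interval -3.22 to -0.35). C5ar2, the other C5a receptor, had 6 and 0 counts, too few to be tested. The chains of complement receptor 3 went apart, with 24 and 17 counts and a ratio of 1.002 (interval 0.06 to 2.002) for Itgam, and 8 and 19 counts and a ratio of -0.68 (interval -2.13 to 0.53) for Itgb2. Cd93 had 667 and 1134 counts and a ratio of -0.25 (interval -0.39 to -0.11), while C1qbp and Lrp1, which bind C1q among many other ligands, had ratios of 0.07 and 0.23. C5ar1, Itgb2 and Itgam, the last with a ratio above 0, are also expressed by neutrophils. The neutrophil genes S100a8 and S100a9 had 11 and 37, and 13 and 105 counts, with Ly6g at 0 in both groups. Cd93 is also known from endothelium, and of 7 endothelial markers 2 had a ratio above 0 and 5 below, the median being -0.44. The part of either list in these values was not tested.

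Many lectin and terminal components had no counts. In the lectin pathway 6 of 9 genes, the mannose-binding lectins and both Masp genes among them, were at 0 in both groups, and the 3 tested were Fcna (28 and 38 counts), Colec11 (6 and 12) and Colec12 (26 and 60, ratio -0.67, interval -1.41 to -0.004). Of 7 terminal components Hc, which encodes C5, and 3 others were at 0, C6 had 0 and 4 counts, C7 had 11 and 5 (ratio 1.58, interval 0.01 to 3.53) and C8g had 12 and 21.

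**Figure D4:**
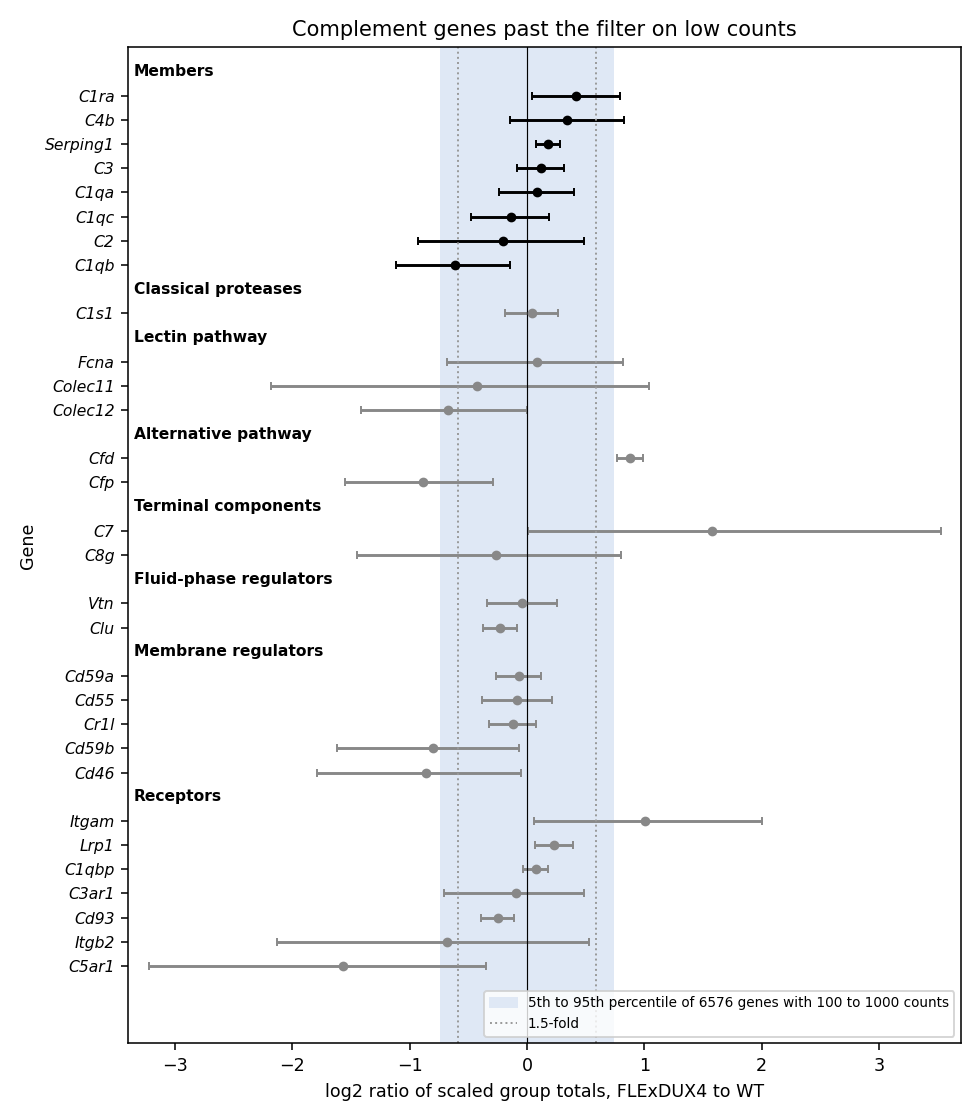
Log2 ratio of FLExDUX4 to WT with 95% Clopper-Pearson counting intervals for the 8 tested members (black) and other tested complement genes (grey), grouped by role. The blue band holds the 5th to 95th percentile of 6576 tested genes with 100 to 1000 counts and dotted lines mark 1.5-fold. All black points lie in the band, and C5ar1, Cfp, Cd46, Cd59b, Cfd, Itgam and C7 lie outside it.

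Interferon gamma is known to raise transcripts of several complement genes, and its response genes were listed for comparison. Of 8 interferon and class I MHC genes 2 had a ratio above 0 and 6 below, the median being -0.15, and B2m, the most abundant, had 2465 and 3307 counts and a ratio of 0.09. Psmb8 (32 and 96 counts) and Tap1 (9 and 49), both of the MHC region on chromosome 17 like C4b, C2 and Cfb, had ratios of -1.05 and -1.87. Psmb9 of the same region, with 69 and 70 counts, had a ratio of 0.50 (interval -0.005 to 0.996). On the side of lower coordinates, the nearest genes with counts beside C4b and Cfb had ratios above 0. Tnxb, beside C4b, had 76 and 58 counts and a ratio of 0.90 (interval 0.39 to 1.43), and Nelfe, beside Cfb, had 72 and 53 and a ratio of 0.95 (interval 0.43 to 1.498). Zbtb12, on the strand opposite to C2 and overlapping it over 17385 bp, had 26 and 54 counts and a ratio of -0.52 (interval -1.27 to 0.16). Beside C3, Gpr108 had a ratio of 0.11 (interval -0.19 to 0.40). Stk19, on the other side of C4b, had a ratio of 0.20 (interval -0.25 to 0.63), and Zbtb40, beside C1qa, had 0.18 (interval -0.38 to 0.72). Ratios were below 0 for Ephb2 beside C1qb with 4 and 20 counts (ratio -1.67, interval -3.81 to -0.23) and Ypel4 beside Serping1 with 0 and 12. They were also below 0 for Ube2l6 on the other side of Serping1 with 17 and 38 (ratio -0.62, interval -1.56 to 0.22). Tubb4a beside C3 had 3 and 5 counts (ratio -0.14), and C1rl beside C1ra had 5 and 9 (ratio -0.27).

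The deposited table also holds the authors' mean of normalized counts over their samples, and it gave a second view of the level of these genes. That mean was above 0 for 1452 of the 32783 features at 0 in both group totals, so for those features it rests on reads beyond those in the totals. Divided by the summed counts and set to 1 for the median tested gene, it was 2.79 for C1qb, 1.78 for C4b, 1.69 for C1qc and 1.56 for C1qa. It was at least 1.5 for these 4 of the 8 tested complement genes, beside 2.35% of all tested genes and 0.654% of those with 100 to 1000 counts. C3 stood at 1.41, and Serping1 at 1.09, C1ra at 1.06 and C2 at 1.01 stood near the median gene.

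The same quotient was at least 1.5 for 7 of the 12 macrophage markers, with a median of 2.01, led by Ctss at 5.55, and was 2.74 for C3ar1 and 2.23 for Itgb2. Not every macrophage marker had it, with 0.98 for Csf1r, 0.99 for Cd163 and 1.12 for Lyve1. Of the 8 interferon and class I MHC genes 3 reached 1.5. None of the 10 fibroblast, 8 adipocyte, 7 endothelial or 8 skeletal muscle markers reached 1.5, with medians from 0.96 to 1.12. What raises the mean for these genes, and in which mice, was not analysed here. The part of macrophage markers in the values of the C1q genes and C4b was not tested.

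**Figure D5:**
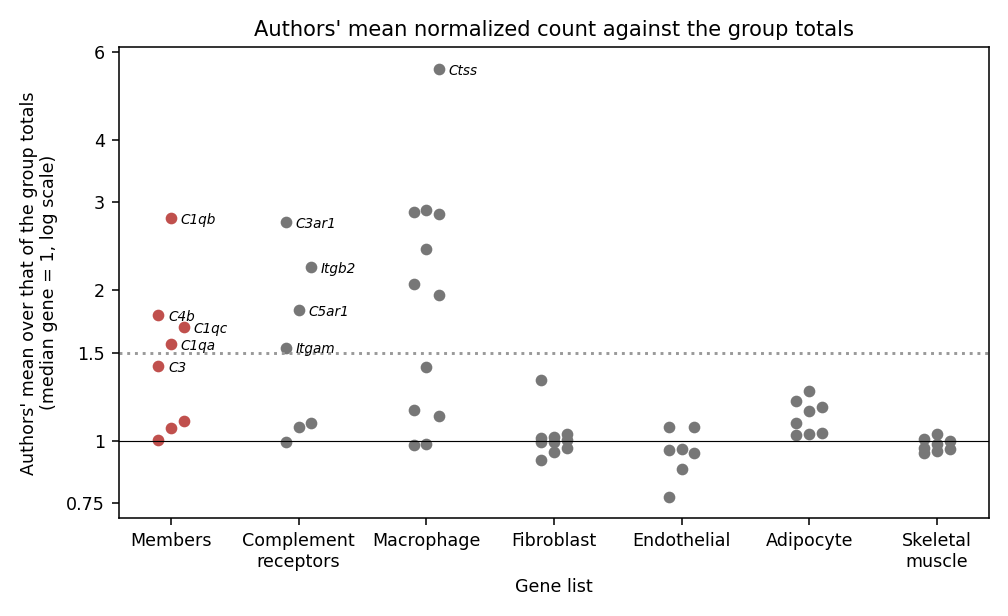
The authors' mean normalized count divided by the summed counts of the group totals, set to 1 for the median tested gene (log axis), for each tested gene of 7 lists. Members are in red and the dotted line marks 1.5. The C1q genes and C4b among the members, 4 receptors and 7 macrophage markers lie above it, and no fibroblast, endothelial, adipocyte or skeletal muscle marker does.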

How the data were processed

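Libraries were made by Lexogen with the QuantSeq 3′ kit (forward) and sequenced on a NextSeq 500. The authors trimmed reads with Cutadapt 1.16 and aligned them with STAR 2.5.3a to GRCm38 joined with spike-in sequences (ERCC, SIRV), and the submitters' processing notes also name featureCounts 1.6.2 and DESeq2. The deposited counts are whole reads per feature summed over each genotype without normalization. The authors' mean of normalized counts, a signal divided by their size factors, was printed as theirs. Their log2 fold change, its standard error, Wald statistic, p-value and adjusted p-value were not used, nor were 6 further columns that hold single samples under names found in no label.

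No edgeR test across mice, which the plan made conditional on such values, was run. Spike-ins were left out of library totals. Scaling and the filter (filterByExpr) used edgeR 4.0.16 in R 4.3.3, and intervals used scipy 1.17.1 in Python 3.11.15. Intervals and floors cover counting error only. They treat reads as independent, so where PCR copies of a molecule count more than once the intervals are too narrow. A group with at most 3 counts was at the floor. The scripts were tested on simulated data. The table's Itgam symbol stands on several rows, and the one with the most counts was used. Coordinates and sequences come from a GENCODE annotation of GRCm38 later than that of the authors, and all 9 gene starts equal the deposited ones.

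The genes and lists were chosen with earlier results of these data known. Named were all 9 genes, other complement genes over the floor, the nearest genes with counts beside each, and markers beside a result, and 1 gene of these lists, included in their counts and medians, is not reported here. Alternatives were other scalings, filters and a pseudocount, and, chosen after seeing the data, the counts of overlapping or near-identical genes added.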

Additional observations from a re-analysis of the deposited data

Results flagged for a closer look

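The authors' mean of normalized counts stood high against the group totals for 4 complement genes. For some features that mean rests on reads beyond those in the totals. Whether it does so for these 4 genes was not tested. Divided by the summed counts and set to 1 for the median tested gene, this mean was 2.79 for C1qb, 1.78 for C4b, 1.69 for C1qc and 1.56 for C1qa. With the average CPM of the groups in place of the summed counts, a choice made after seeing the data, the values were 2.89, 1.74, 1.70 and 1.56. What raises the mean for these genes was not analysed here.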

How the results depend on the processing

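No paired analysis was possible because only group totals entered the comparison. Tests with edgeR and DESeq2, and leaving out each replicate in turn, were not run on that account. With spike-in totals the median ratio was -0.18 for the 8 tested complement genes (2 above 0, 6 below) and -0.37 for the 23 others, against 0.10 and -0.10 with TMM. Serping1 changed direction there (-0.094), and C3 had -0.16. The interval excluded 0 for 2 of the 8 there, against 3. With a pseudocount of 3, 0 of the 8 lay past 1.5-fold, against 1. Over the 6 scalings, the pseudocount of 3 and, for C1ra and C4b, the added counts, the ratio ranged from -0.89 to -0.58 for C1qb, from -0.41 to -0.13 for C1qc, from 0.15 to 0.42 for C1ra, from -0.19 to 0.09 for C1qa and from 0.06 to 0.38 for C4b. Single ratios were not recomputed under the other filters. Cfb had too few counts for a ratio. What moved the spike-ins was not tested. Depth limits C2, Cfb and most receptors.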
